A study of Homo sapiens with 6 samples.

Results

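The genes described here are the Toll-like receptor genes TLR3 and TLR4, the TLR4 co-receptor gene LY96, the adaptor genes MYD88, TIRAP, TICAM1 and WDFY1, and the signalling genes IRAK4, IRAK1 and TRAF6. They are 10 of the 21533 genes in the deposited tables. They were matched by symbol. The set was proposed with fold changes of the same comparison in view: WDFY1 was chosen by its rise, and the other 9 for their place in the pathway with their values known. The levels, fold changes, intervals and calls of the 10 genes are therefore a description, and no p-value is given for them.

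RNA sequencing was done on LX-2, an immortalised line of human hepatic stellate cells, the vitamin A storing cells of the liver that lay down matrix when activated. In 3 samples the cells had been transfected with a control siRNA and in 3 with an siRNA against PERK, the endoplasmic reticulum stress kinase encoded by EIF2AK3. All 6 samples received palmitic acid, a saturated fatty acid, and RNA was collected 24 h later, so siRNA transfection and lipid are common to both groups. The line is a single cell line, no label says that the samples came from separate cultures, and the spread between samples may be technical.

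Toll-like receptors recognise microbial and damaged-cell molecules. TLR4, with its partner MD-2 (encoded by LY96), binds bacterial lipopolysaccharide at the cell surface, and TLR3 binds double-stranded RNA in endosomes. TLR4 signals through the MyD88 arm (TIRAP, MyD88, IRAK4, IRAK1, TRAF6) to NF-κB and through TRIF (encoded by TICAM1) to interferon genes, whereas TLR3 uses TRIF alone. WDFY1 is an endosomal protein with WD repeats and a FYVE domain, a fold that binds a phosphoinositide of endosomes, and it is known as a protein that brings TRIF to TLR3 and TLR4. In the liver, stellate cells are known to express TLR4 and to respond to lipopolysaccharide.

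The libraries held 17937141 to 19585872 exon reads, and 3 reads, taken as the detection floor, stood for 0.153 to 0.168 CPM. CPM are reads scaled to library size and by the trimmed mean of M-values (TMM), and the floor covers counting error only. EIF2AK3 was lower in every PERK siRNA sample, at 4.37 to 5.52 CPM against 12.9 to 13.9 CPM in controls. All 14 stellate cell markers had a read and 9 passed the filter, with DES, LRAT, LUM and DCN among those below it. The summed level of the list was 7718 to 7999 CPM in controls and 8432 to 8514 CPM with PERK siRNA. Most of that sum came from VIM, COL1A1 and SPARC, and single markers moved both ways: ACTA2 was 3.86-fold and COL1A2 2.30-fold higher, PDGFRA 2.68-fold and COL3A1 1.86-fold lower, all called by edgeR.

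With PERK siRNA TLR4 and WDFY1 moved several-fold in opposite directions, while MYD88, TIRAP and TICAM1 were not called. TLR4 was 4.18-fold lower, TLR3 was at 97.8% of its control mean, and WDFY1 was 5.76-fold higher. All 10 genes passed the expression filter. By edgeR's quasi-likelihood test over all genes (adjusted p under 0.05), WDFY1, LY96, TRAF6 and IRAK4 were called higher and TLR4 and IRAK1 lower. That is 6 of 10, where 69.5% of the 12973 genes tested were called, 34.4% higher and 35% lower. Those called and changed at least 2-fold were TLR4 and WDFY1, 2 of 10, against 7.91% of all genes tested. In 7 of the 10 the samples of the groups did not overlap, which held for 71.8% of all genes. These shares are given as description, since the comparison helped to choose the genes. The median log2 fold change of the 10 genes was 0.08 and that of all tested genes 0.00.

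**Figure D1:**
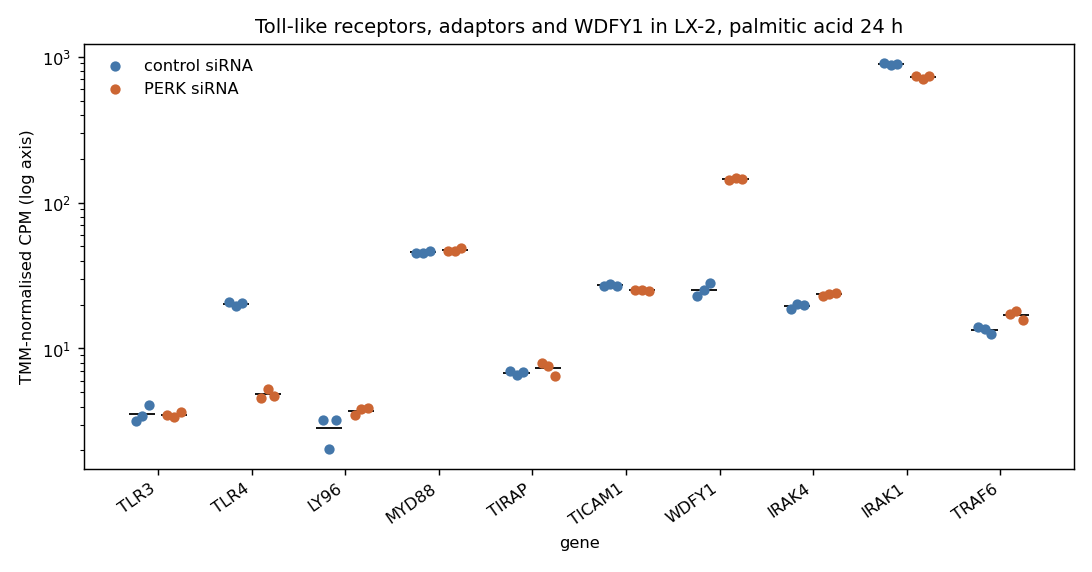
TMM-normalised CPM on a log axis for the 10 genes in 3 control siRNA samples and 3 PERK siRNA samples, with points for samples and black lines for group means. TLR4 is lower and WDFY1 higher by several-fold in every PERK siRNA sample, while the points of MYD88, TIRAP and TLR3 overlap between groups.

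TLR4 (ENSG00000136869; GRCh38 chromosome 9, 117704175 to 117724730, plus strand) measured 20.8, 19.6 and 20.6 CPM in control samples 1 to 3, against 4.596, 5.27 and 4.73 CPM in PERK siRNA samples 1 to 3. Every PERK siRNA sample was far below every control. Mean levels were 20.3 ± 0.62 CPM (SD, n = 3) and 4.87 ± 0.36 CPM (SD, n = 3). The log2 fold change was -2.06 (SE 0.09), and 23.9% of the control level remained. In bulk RNA, fewer cells that hold a transcript and less of it per cell cannot be told apart. Of the TLR4 reads 92.2% were placed uniquely. A read-through gene on the same strand (ENSG00000285082) overlaps 4.20% of its annotated exon bases, and that gene itself was given no more than 1 read in any sample. Counted over unique reads alone, TLR4 went from 18.7 ± 0.49 to 4.50 ± 0.23 CPM (SD, n = 3 each).

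TLR3 (ENSG00000164342; chromosome 4, 186069152 to 186088069, plus strand) stood at 3.20, 3.43 and 4.09 CPM in controls and at 3.48, 3.38 and 3.64 CPM with PERK siRNA. The PERK siRNA values all lay within the range of the controls. The log2 fold change was -0.03, with a 95% interval of -0.35 to 0.28, and it turned to 0.074 without control sample 3. TLR3 was thinly covered, with 62 to 79 reads per sample, and all of them were placed uniquely.

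Levels of different genes are compared in TPM, which is per exon length, and on that scale the order of the receptors changed. The ratio of TLR4 to TLR3 in TPM was 3.48, 3.07 and 2.70 in the control samples and 0.71, 0.84 and 0.70 in the PERK siRNA samples. By TPM TLR4 was thus the more abundant receptor mRNA in each control sample and TLR3 in each PERK siRNA sample. This order depends on the exon lengths used, 13025 bases for TLR4 and 6988 for TLR3. Before scaling by length TLR4 had more reads than TLR3 in every sample, at 82 to 103 against 62 to 70 with PERK siRNA. TLR4 was 8th of the 10 genes in controls at 5.45 ± 0.13 TPM and last with PERK siRNA at 1.30 ± 0.10 TPM, while TLR3 stood at 1.78 ± 0.22 and 1.74 ± 0.06 TPM (SD, n = 3 each).

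LY96 (ENSG00000154589; chromosome 8, 73991352 to 74029087, plus strand) encodes MD-2, without which TLR4 does not bind lipopolysaccharide. Its level was 3.26, 2.04 and 3.21 CPM in controls and 3.48, 3.84 and 3.90 CPM with PERK siRNA. The groups did not overlap, but control sample 2, with 38 reads, lay well below the other controls with 62 and 64. The log2 fold change was 0.40 (SE 0.17), and it was 0.21 and no longer called without control sample 2. The call was also lost without PERK siRNA sample 2 (0.38) or 3 (0.37), with DESeq2 (0.40) and with no scaling factors (0.39). The direction of LY96 was the opposite of that of its receptor: the ratio of TLR4 to LY96 in TPM was 0.32 ± 0.08 in controls and 0.056 ± 0.0035 with PERK siRNA (SD, n = 3 each).

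The adaptor genes MYD88, TIRAP and TICAM1 differed little between the groups. MYD88 (ENSG00000172936; chromosome 3, 38138478 to 38143022, plus strand), the adaptor of most Toll-like receptors and of the IL-1 receptor, stood at 45.02, 45.3 and 46.6 CPM in controls and 46.9, 46.5 and 49.2 CPM with PERK siRNA. These ranges overlap by a narrow margin, and the log2 fold change of 0.06 had a 95% interval of -0.03 to 0.15. TIRAP (ENSG00000150455; chromosome 11, 126283065 to 126298845, plus strand), which brings MyD88 to TLR4, stood at 7.02, 6.54 and 6.94 CPM in controls. With PERK siRNA it was at 7.90, 7.57 and 6.50 CPM, a log2 fold change of 0.10 with an interval of -0.12 to 0.32. PERK siRNA sample 3 was the lowest of all 6 for TIRAP and the other 2 of its group were the highest.

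TICAM1 (ENSG00000127666; chromosome 19, 4815932 to 4831704, minus strand), encoding TRIF, was at 26.9, 27.7 and 26.7 CPM in controls and 25.1, 25.2 and 24.7 CPM with PERK siRNA. Its groups did not overlap, yet the difference was small (log2 fold change -0.12, 95% interval -0.23 to -0.01) and was not called. It was called with limma-voom (-0.12) and with no scaling factors (-0.13). MYD88 exceeded TICAM1 in TPM in every sample, by a ratio of 1.57 to 1.67 in controls and 1.77 to 1.91 with PERK siRNA.

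WDFY1 (ENSG00000085449; chromosome 2, 223855716 to 223945387, minus strand) had the largest difference of the 10 genes. Control samples 1 to 3 held 22.8, 25.0 and 27.9 CPM, whereas PERK siRNA samples 1 to 3 held 142, 148 and 146 CPM. The lowest PERK siRNA sample was several times the highest control. Mean levels were 25.2 ± 2.56 CPM (SD, n = 3) and 145 ± 3.01 CPM (SD, n = 3), and the log2 fold change was 2.53 (SE 0.05). In TPM it moved from the 4th place of the 10 genes, at 19.0 ± 1.86, to the 2nd, at 109 ± 2.93 (SD, n = 3 each). In controls its TPM range overlapped that of LY96, the gene below it. The ratio of WDFY1 to TICAM1 in TPM was 0.49, 0.52 and 0.61 in controls and 3.28, 3.41 and 3.43 with PERK siRNA. By TPM the mRNA of the recruiting protein thus went from below to above that of the adaptor it recruits. This order depends on the exon lengths used, 4629 bases for WDFY1 and 2684 for TICAM1. Before scaling by length WDFY1 had fewer reads than TICAM1 in control samples 1 and 2 but more in control sample 3, at 539 against 516.

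Part of the WDFY1 count was not placed uniquely. In the control samples 297, 288 and 362 of 448, 467 and 539 reads were unique, and in the PERK siRNA samples 1762, 2052 and 1975 of 2534, 2891 and 2805. The unique share was 66.3, 61.7 and 67.2% in controls and 69.5, 71.0 and 70.4% with PERK siRNA, so every PERK siRNA sample had the higher share. Both kinds of read were higher: unique reads went from 16.4 ± 2.01 to 102 ± 3.17 CPM, a 6.22-fold difference, and the remaining reads from 8.81 ± 1.01 to 43.1 ± 0.17 CPM, a 4.89-fold difference (SD, n = 3 each). No other gene's transcript in GENCODE v29 held any of the 5513 words of 50 bases found in WDFY1 transcripts, on either strand. Where else in the genome the shared reads could be placed was not examined. Its relative WDFY2, with 77.3% of reads placed uniquely, was lower with PERK siRNA.

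**Figure D2:**
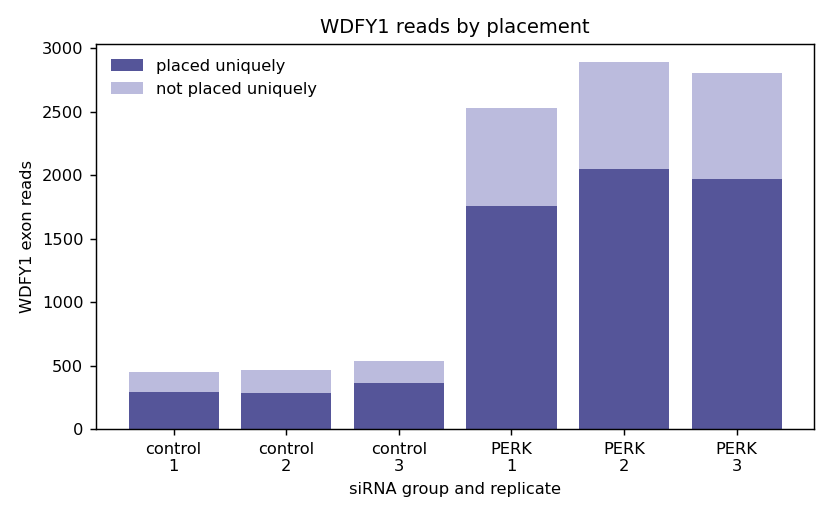
WDFY1 exon reads in each of the 6 samples, as stacked bars of reads placed uniquely and reads not placed uniquely. Both parts are taller in the 3 PERK siRNA samples, where the totals are 2534 to 2891 reads against 448 to 539 in controls.

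Below MyD88, the kinases IRAK4 and IRAK1 and the ligase TRAF6 of the set moved by small amounts in both directions. IRAK2, a related gene outside the set, fell by more and is given with the MyD88 arm. IRAK4 (ENSG00000198001; chromosome 12, 43758944 to 43789543, plus strand), the first kinase to join MyD88, stood at 18.6, 20.1 and 19.9 CPM in controls and at 22.9, 23.6 and 24.0 CPM with PERK siRNA. It rose by a log2 fold change of 0.27 (SE 0.06) with no overlap. IRAK1 (ENSG00000184216; chromosome X, 154010500 to 154019980, minus strand), the kinase that IRAK4 phosphorylates, went the other way, from 901, 879 and 893 CPM to 736, 707 and 738 CPM (log2 fold change -0.29, SE 0.02). TRAF6 (ENSG00000175104; chromosome 11, 36487027 to 36510272, minus strand), the ubiquitin ligase that IRAK1 engages, stood at 13.99, 13.7 and 12.5 CPM in controls. With PERK siRNA it stood at 17.3, 18.02 and 15.7 CPM, a log2 fold change of 0.35 (SE 0.08) without overlap.

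IRAK1 was by far the most abundant of the 10 mRNAs, at 849 ± 7.81 TPM in controls and 690 ± 12.5 TPM with PERK siRNA (SD, n = 3 each). By TPM it lay at the 98.7th percentile of the genes with a read, or above, in every sample. The ratio of IRAK1 to IRAK4 in TPM was 70.6 to 78.2 in controls and 48.1 to 51.7 with PERK siRNA. By mean TPM the order in controls was IRAK1, MYD88, TICAM1, WDFY1, LY96, IRAK4, TRAF6, TLR4, TIRAP and TLR3, and the sample ranges of neighbours overlapped for WDFY1 and LY96 and for TRAF6 and TLR4. With PERK siRNA the order was IRAK1, WDFY1, MYD88, TICAM1, LY96, IRAK4, TRAF6, TIRAP, TLR3 and TLR4, with no overlap between neighbours. Both orders depend on the exon lengths used, which sample ranges do not reflect. These were 7978 bases for TRAF6 and 5065 for TIRAP, against 4871 and 3591 exon bases in GENCODE v29.

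Promoter sequence was examined for motifs of factors tied to this pathway or to PERK, since TLR3 and MYD88 are known targets of interferon regulatory factors. In all 7 motifs were searched on both strands. RefSeq promoters (GRCh38.p14, 250 bases before to 50 after the gene start) were found for 8 of the 10 genes, LY96 and TIRAP being without an entry. The IRF motif GAAANNGAAA was present on either strand in 2 of the 8, TLR3 and MYD88, and in 3.57% of the 35116 promoters in the table. These windows show it in capitals, each 30 bases on the strand of the gene, TLR3 at chr4:186069142-186069171 (plus) and MYD88 at chr3:38138590-38138619 (plus).
TLR3: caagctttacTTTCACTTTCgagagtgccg
MYD88: gcgcttctcgGAAAGCGAAAgccggcgggg
In TLR3 the motif lies across the gene start, on the opposite strand, and in MYD88 it begins at position -61 from the start. Neither gene was called in this comparison.

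An NF-κB consensus match was found in 2 of the 8 promoters, against 11.3% of all promoters. They are TICAM1 at chr19:4831813-4831842 (minus) and IRAK1 at chrX:154019997-154020026 (minus), each shown on the strand of the gene because NF-κB is the main factor at the end of the MyD88 arm.
TICAM1: gggcgacccgGGGACTTTCCcggtgctgcg
IRAK1: tccccggcgcGGGGCGCCCCcgtgtgaccc
The AP-1 motif TGANTCA was in the IRAK1 promoter alone among the 8 (7.71% of all), and the ATF4-C/EBP motif TGATGNAA in that of TLR3 alone (3.62% of all), where it does not overlap the IRF motif. The cyclic AMP response element TGACGT was in none of the 8 (7.98% of all). The PU.1 motif GAGGAA was in TLR4, with 4 matches, and in MYD88 (27.9% of all). The C/EBP motif, in the forms TTGNNCAA, TTGNNAAA, TTANNCAA and TTANNAAA, was in TLR3 and IRAK4 (33.1% of all). The windows of WDFY1 and TRAF6 held none of the 7. A match is a description of letters, not a bound site.

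The other receptors were taken from a list of 15 receptors and co-receptors, of which 6 passed the filter, 4 fell and none rose. The share called, 66.7%, was near the 69.5% of all tested genes. The only one of the 6 with a positive fold change, TLR5, was also not called by DESeq2 or limma-voom, and its unadjusted p was 0.76 by edgeR, so that none rose at an unadjusted p under 0.05. TLR1 and TLR6, which pair with TLR2 at the cell surface to bind bacterial lipopeptides, fell along with TLR2. TLR6 stood at 6.00, 3.81 and 4.71 CPM in controls and 2.13, 1.64 and 1.56 CPM with PERK siRNA. It fell by 1.45 on the log2 scale (SE 0.19), with an edgeR adjusted p = 8.3e-08. Genes named from this and the later lists were mostly picked by adjusted p in this same comparison, so their p-values are a description. TLR1 stood at 1.63, 1.34 and 1.605 CPM against 0.34, 0.51 and 0.47 CPM (-1.77, SE 0.31, adjusted p = 9.5e-06). In both genes no PERK siRNA sample reached the lowest control. TLR1 had only 6 to 10 reads per PERK siRNA sample, and 5.33% of its 50-base words also occur in TLR6 transcripts, although 95.6% of its reads and 96.3% of those of TLR6 were placed uniquely.

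TLR2 was less even. It stood at 2.64, 2.74 and 2.80 CPM in controls and at 2.47, 1.33 and 1.46 CPM with PERK siRNA, where sample 1 lay close to the controls. The log2 fold change was -0.65 (SE 0.22, adjusted p = 0.0095), and the call was lost without PERK siRNA sample 2 (-0.48, adjusted p = 0.079) or sample 3 (-0.53, adjusted p = 0.052), the adjusted p ranging from 0.00093 to 0.079 over all alternatives. CD14, which hands lipopolysaccharide to TLR4 and MD-2, fell from 9.61, 10.4 and 9.73 to 7.34, 6.86 and 7.13 CPM (-0.48, SE 0.10, adjusted p = 6.5e-05). TLR5, the flagellin receptor, did not pass the test (0.07, 95% interval -0.42 to 0.57, adjusted p = 0.80), and its value was -0.13 without control sample 3. TLR8 and TLR9 had no read in any sample, and TLR7 and TLR10 had at most 2, all below the floor of 3.

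Several of these receptor genes are also expressed by macrophages and endothelial cells, so markers of other liver cells are given beside them. Of 14 macrophage markers 6 had a read in any sample, and MARCO, VSIG4, CD163, C1QA, C1QB, C1QC, TYROBP and CD5L were at 0 in all 6. The summed level of the list was 15.2 to 16.4 CPM in controls and 8.14 to 8.58 CPM with PERK siRNA, nearly all of it from CD14 and CSF1R. Without these 2 genes it was 0.88 to 1.02 and 0.62 to 0.95 CPM. Of 8 endothelial markers 7 had a read and CLEC4G was at 0 in all samples. Their summed level was 11.6 to 12.2 CPM in controls and 4.43 to 5.22 CPM with PERK siRNA. The lower sum came mainly from PECAM1, an adhesion molecule of endothelial cells and leukocytes, at 8.95 ± 0.05 CPM against 0.63 ± 0.11 CPM (SD, n = 3 each). The other 2 tested were not called, with means from 0.78 to 0.63 CPM for VWF and from 1.49 to 2.03 CPM for KDR. Below the filter, ERG (0.21 to 0.85 CPM) and TEK (0.29 to 0.45 CPM) were higher with PERK siRNA and CDH5 (0.23 to 0.09 CPM) lower, and STAB2 had at most 2 reads. Hepatocyte markers summed to 3.81 to 4.97 CPM in controls and 3.43 to 4.37 CPM with PERK siRNA, with ALB, APOA1, TTR, APOB, FGB and CYP3A4 at 0. Whether other cells had a part in the lower receptor values was not tested.

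**Figure D3:**
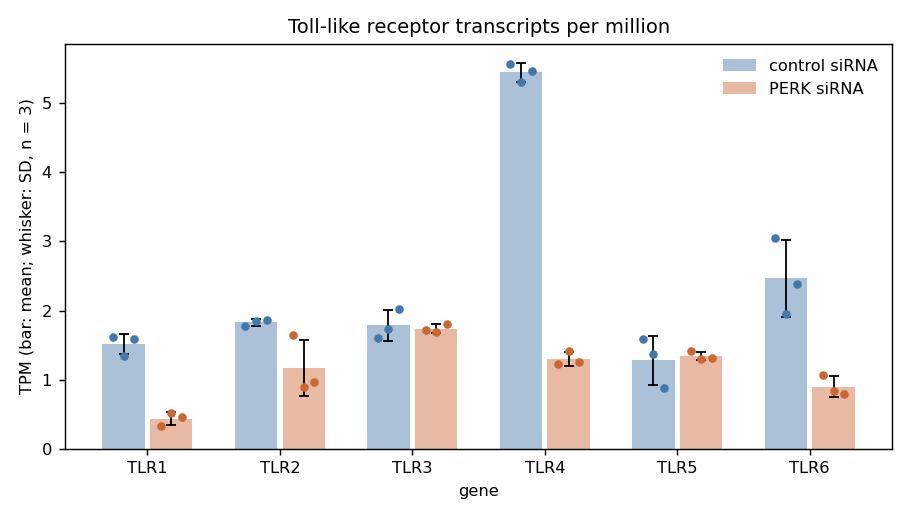
TPM of the 6 Toll-like receptor genes that passed the filter, with bars for group means, whiskers for the SD (n = 3) and points for samples. TLR4 is the tallest bar in controls at 5.45 TPM and drops to 1.30 TPM, and TLR1 and TLR6 are lower too, while the points of TLR3 and TLR5 overlap between groups.

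**Figure D4:**
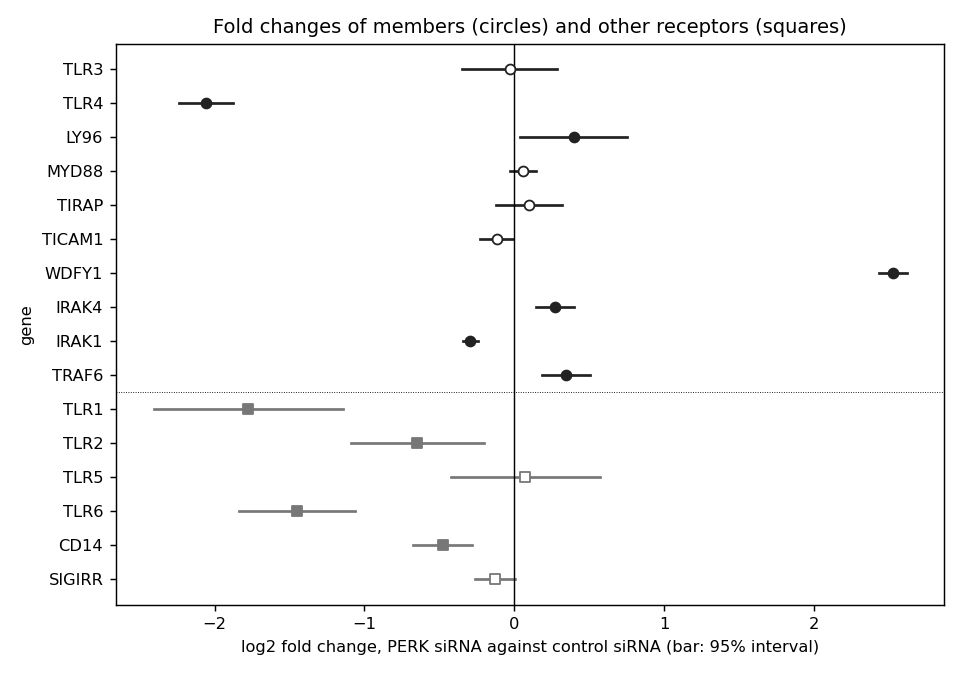
Log2 fold changes, PERK siRNA against control siRNA, with 95% intervals for the 10 genes (circles) and the other receptors that passed the filter (squares), filled where the gene was called. TLR4, IRAK1, TLR1, TLR6, TLR2 and CD14 were called and lie left of 0, and WDFY1 is alone at the far right at 2.53. Of the squares, SIGIRR at -0.13, named after its values were seen, and TLR5 at 0.07 were not called.

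Of 14 genes for proteins that fold and carry the receptors 13 were tested: 7 fell, 3 rose and the list's median was -0.19 on the log2 scale. That is 76.9% called, beside 69.5% of all tested genes. HSP90B1, encoding the chaperone gp96 that Toll-like receptors need to fold, fell from 1015 ± 23.1 to 678 ± 6.72 CPM (SD, n = 3 each; -0.58, SE 0.02, adjusted p = 5.0e-19). LGMN, encoding an endosomal protease that can cleave endosomal receptors, fell from 45.8 ± 0.83 to 20.2 ± 1.14 CPM (SD, n = 3 each; -1.18, adjusted p = 4.8e-18). The cathepsin gene CTSB (0.42, adjusted p = 6.1e-14) and CNPY4, of the family of receptor co-chaperones (0.88, adjusted p = 4.1e-12), rose. CNPY3, of the same family and named after its values were seen, was more abundant than CNPY4 (102 against 12.2 CPM in controls). It fell to 76.3 CPM (-0.42, adjusted p = 5.4e-12). UNC93B1, which carries TLR3 to endosomes and was named after its values were seen, was at 31.99 ± 1.997 and 33.5 ± 2.23 CPM (SD, n = 3 each; 0.06, 95% interval -0.05 to 0.18).

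The MyD88 arm beyond the members was split evenly, with 8 of 19 tested genes higher and 8 lower and a median of -0.01. In all 84.2% were called, beside 69.5% of all tested genes. TAB2, an adaptor that links TRAF6 to the kinase TAK1, rose from 48.0 ± 1.04 to 140 ± 2.22 CPM (SD, n = 3 each; 1.55, SE 0.03, adjusted p = 2.4e-25). MAP3K7, encoding TAK1, rose too (0.56, adjusted p = 2.9e-14). PELI1, a ubiquitin ligase that acts on IRAK proteins, fell from 18.6 ± 0.99 to 4.54 ± 0.52 CPM (SD, n = 3 each; -2.03, SE 0.10, adjusted p = 2.2e-17). UBE2V1, a partner of the TRAF6 conjugating enzyme, rose (0.43, adjusted p = 1.3e-14), but only 0.71% of its reads were placed uniquely. IRAK2 and IRAK3, on the same list, were named after their values were seen. IRAK2 fell from 15.7 ± 1.02 to 6.56 ± 0.31 CPM (SD, n = 3 each; -1.25, SE 0.09, adjusted p = 4.1e-13). IRAK3 rose (0.31, adjusted p = 0.014), with overlap between the groups.

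In the TRIF arm 7 of 15 tested genes fell, 4 rose and the median was -0.12. Those called made up 73.3%, near the 69.5% of all tested genes. TRAF3, the ligase that TRIF engages toward interferon genes, fell from 80.9 ± 0.33 to 58.5 ± 1.28 CPM (SD, n = 3 each; -0.47, SE 0.04, adjusted p = 1.8e-12). IRF3 (-0.37, adjusted p = 3.7e-07) and IRF7 (-0.64, adjusted p = 9.9e-08), the transcription factors of that branch, fell, and RIPK1, which links TRIF to NF-κB and cell death, rose (0.31, adjusted p = 4.0e-08). TICAM2, the adaptor that joins TRIF to TLR4, was named after its values were seen. It rose from 13.0 ± 2.77 to 25.0 ± 1.81 CPM (SD, n = 3 each; 0.94, SE 0.14, adjusted p = 0.00044), with only 17.2% of its reads placed uniquely.

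All 16 tested genes on the list of brakes on the receptors and linked genes were called, 9 lower and 7 higher, with a median of -0.23. Of all tested genes 69.5% were called. Among the 7 higher, RNF31, named after its values were seen, had only 1.57% of its reads placed uniquely, and its groups overlapped. SOCS1, a suppressor of cytokine and Toll-like receptor signalling, fell from 27.9 ± 2.61 to 5.47 ± 0.55 CPM (SD, n = 3 each; -2.35, SE 0.09, adjusted p = 2.9e-19). OTULIN, a deubiquitinase of linear chains (-0.80, adjusted p = 2.0e-19), TRAF4 (-0.75, adjusted p = 1.4e-15) and the phosphatase gene PTPN11 (-0.35, adjusted p = 7.4e-13) fell as well. The 7 that rose include TNFAIP3 (0.62, edgeR adjusted p = 8.2e-12) and CYLD (0.54, edgeR adjusted p = 6.1e-12), both named after their values were seen. Among 11 other sensors of double-stranded RNA and their partners 5 rose and 3 fell (median 0.14). Here 72.7% were called, near the 69.5% of all tested genes. EIF2AK2, encoding the kinase PKR (-0.59, adjusted p = 1.1e-15), fell, while OAS2 (0.90, adjusted p = 4.8e-09) and ZNFX1 (0.11, adjusted p = 0.00051) rose.

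Relatives of WDFY1 did not share its direction as a group. Of 27 genes with a FYVE domain or of the WDFY family, 25 were tested, 11 rose and 11 fell, with a median of 0.07. None of the 25 rose as much as 2-fold, and 3 were called and fell at least 2-fold. Of all tested genes 7.91% were called and changed at least 2-fold in either direction. With 25 genes and a share that low, the lack of a 2-fold rise is a description only. In all 88% of the 25 were called, beside 69.5% of all tested genes. PIKFYVE, the lipid kinase of late endosomes, fell from 95.8 ± 2.64 to 35.03 ± 2.54 CPM (SD, n = 3 each; -1.45, SE 0.04, adjusted p = 5.1e-22), and RUFY2 (-1.30, adjusted p = 2.7e-15) and ZFYVE16 (-0.58, adjusted p = 1.4e-14) fell, while the phosphatase gene MTMR4 rose (0.72, adjusted p = 8.4e-18). WDFY2 (-0.33, adjusted p = 1.0e-08) and WDFY3 (-0.19, adjusted p = 8.5e-07), named after their values were seen, fell. The ratio of WDFY1 to WDFY2 in TPM was 1.15 to 1.40 in controls and 8.81 to 9.54 with PERK siRNA.

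**Figure D5:**
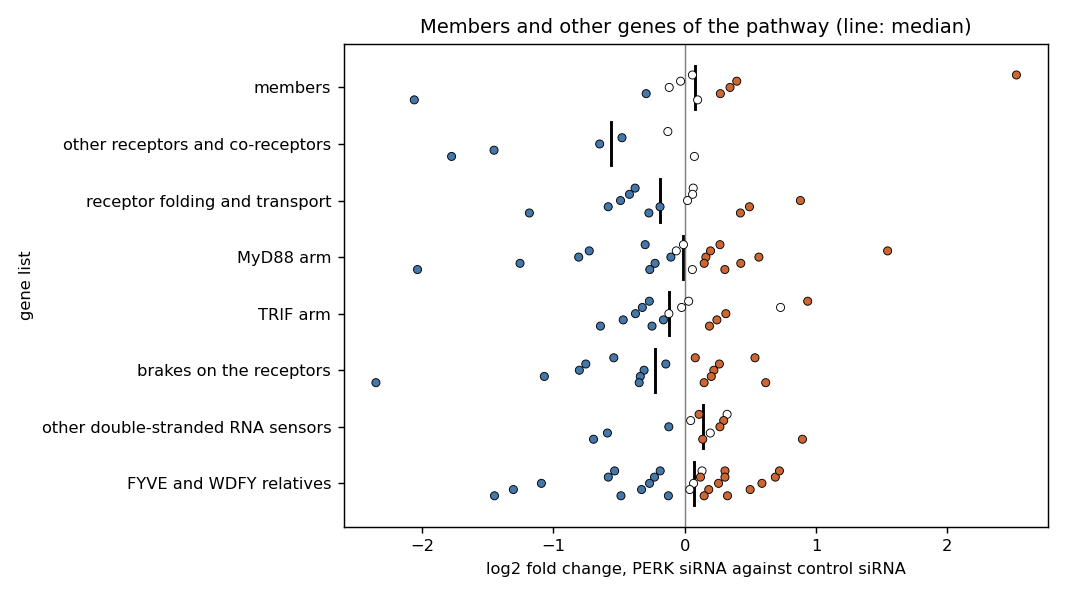
Log2 fold changes, PERK siRNA against control siRNA, of the 10 genes (members) and of the tested genes on each list, with orange points for genes called higher, blue for lower, white for not called, and black lines for medians. The median of the other receptors is the lowest at -0.56, and WDFY1 at 2.53 lies to the right of every listed gene.

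Across the 7 lists 87 of 105 tested genes were called, 38 higher and 49 lower, with a median of -0.02. That is 82.9% called, beside 69.5% of all tested genes (34.4% higher and 35% lower). The lists were chosen with earlier results of these data known, so the shares called in them are a description. Of the 105 genes 11 were called and changed at least 2-fold, as were 7.91% of all tested genes.

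The genes whose profile over the 6 samples lay nearest to that of each receptor and of WDFY1 were found by the distance between centred log2 CPM values, among 12905 genes with reads in every sample. Nearest to WDFY1 were MTMR6 (distance 0.23, from 16.8 to 94.7 CPM), ANKRD13A (0.25, from 56.1 to 302 CPM) and CMKLR2 (0.33, from 2.40 to 11.9 CPM). Nearest to TLR4 were BHLHE40 (0.10, from 126 to 30.5 CPM), MREG (0.12, from 15.9 to 3.81 CPM) and TCF4 (0.16, from 154 to 40.1 CPM). Nearest to TLR3 were MOSMO (0.09), RPL22L1 (0.12) and DRP2 (0.13). With only 2 groups, this distance mostly reflects a like fold change.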

How the data were processed

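Per the file headers, the authors deposited, for each sample and gene, total and unique exon reads as counts and TPM. The submitters' processing notes name the build hg38. The sources used here do not name an aligner, a counter or an annotation. A directional library kit was used, per the labels' protocols, but whether counting used strand is not given.

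Total exon reads were tested with edgeR 4.0.16 (R 4.3.3), using TMM factors, its default expression filter, robust quasi-likelihood dispersions and Benjamini-Hochberg adjustment over 12973 genes of 21533. SE is the absolute log2 fold change over the root of the F statistic, and 95% intervals use the same SE. The deposited TPM served only to compare genes.

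Members and lists were chosen with earlier results of these data known, so the adjusted p-values printed for list genes and the shares called are a description. Named genes are the 10 members, EIF2AK3, in each list up to 4 called genes ranked by adjusted p, any tested TLR gene, and the 3 nearest profiles of WDFY1, TLR4 and TLR3. A gene that the rule names is not reported here. Genes outside that rule are said to be named after their values were seen. Positions and words came from GENCODE v29 (GRCh38).

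On simulated counts of this comparison (12872 genes) edgeR called 45 of 50 genes changed 2-fold and 19 of 12674 unchanged genes. Samples of a group differed by more than sampling noise (chi-square per degree of freedom 1.64 to 2.30). Alternatives were unique reads, other scaling, filters, DESeq2 1.42.0, limma-voom (limma 3.58.1), a replicate block and leaving out each sample.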

Additional observations from a re-analysis of the deposited data

How the results depend on the processing

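Over 14 alternatives, 132 of 140 fold changes of the 10 genes kept their direction and their side of the threshold, and 417 of 420 for EIF2AK3 and the named pathway genes. Leaving out 1 sample at a time, TLR3 ranged from -0.11 to 0.074 and TLR5 from -0.13 to 0.26, both turning direction without control sample 3. The LY96 call was lost in 5 alternatives, TICAM1 was called in 2 and the TLR2 call was lost in 2; the cause was not tested. The replicate numbers did not pair the samples (correlations of same-numbered deviations 0.012, -0.020 and -0.016). With a replicate block 9003 genes were called, against 9014 without it, with 6 of the 10 genes called either way and 88 pathway genes against 87. Leaving out 1 sample gave 8543 to 8721 genes called and 5 or 6 of the 10. DESeq2 called 7884 genes and 5 of the 10. Depth limits TLR3, LY96, TLR1, TLR2 and TLR5, each with under 80 reads per sample.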

Other observations

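Some genes around the receptors rest on reads that were rarely unique. RIGI, a cytosolic RNA sensor, had 2.13% of its reads placed uniquely, against 17.2% for TICAM2, 1.57% for RNF31 and 0.71% for UBE2V1. RIGI averaged 14.3 ± 2.24 CPM (SD, n = 3) in control samples, 17.9 ± 2.88 CPM (SD, n = 3) after PERK siRNA, and did not pass edgeR's test (log2 fold change 0.32, 95% interval -0.06 to 0.70, adjusted p = 0.11). IFIH1, the related sensor MDA5, had 99.8% unique reads and rose (0.30, adjusted p = 0.0021). RIGI and IFIH1 were named after their values were seen.

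TIRAP showed the reverse of WDFY1: 18.8% of the 50-base words of its transcripts occur in transcripts of other genes, yet 99.9% of its reads were placed uniquely.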
